A study of Mus musculus with 6 samples.

Results

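The genes described here encode the core and regulatory proteins of pre-mRNA splicing and the heterogeneous nuclear ribonucleoproteins (hnRNPs). They were taken by name: probe sets with 1 gene symbol of the SR (Srsf), Tra2, Sm and snRNP (Snrp), SF3A, SF3B, SF1, U2AF, PRPF, hnRNP, PTBP and RBFOX families and a mean log2 value above 4, each gene standing on its brightest probe set. This gave 66 genes of 8754 named genes tested, measured by 150 of 15298 probe sets tested. The family was chosen from the same comparison that is described here, since Prpf19 and U2af1 were higher on the infused side, so their values are a description and carry no test. All 66 genes passed the minimum, and the filter touched only second probe sets: the dimmest one kept was a probe set of Sf1 with a mean of 4.07, and the brightest one left out was a probe set of Rbfox2 with a mean of 3.84.

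Splicing removes introns from the primary transcript. SR proteins bind exons and recruit the machinery, SF1 and U2AF mark the branch point and the end of the intron, the U snRNPs with their Sm rings and SF3 subunits assemble there, and PRPF proteins carry the complex through activation and catalysis. hnRNP proteins coat the transcript and often oppose exon inclusion. In brain tissue PTBP and RBFOX proteins set the splicing pattern of neurons. PTBP1 is replaced by PTBP2 as progenitors become neurons, and RBFOX3 is the antigen known as NeuN.

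Messenger RNA was measured on Affymetrix arrays in cochlear nucleus, the brainstem target of the auditory nerve, from mice at postnatal day 21. The sodium channel blocker tetrodotoxin had been delivered to 1 cochlea by osmotic pump for 24 h, giving 3 arrays of the nucleus on that side (ipsilateral) and 3 arrays of the other nucleus of treated animals (contralateral). Each array held RNA pooled from 10 to 12 mice. The labels name no strain or sex, both groups came from treated mice, and in dissected tissue fewer cells of a type and less RNA per cell cannot be told apart. Values are log2, and a difference is the ipsilateral minus the contralateral value.

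Array medians ran from 5.86 to 5.92. Of 16 neuronal markers 14 were tested, with means of 9.90 to 10.11 on the contralateral and 9.87 to 10.23 on the ipsilateral arrays; Slc17a7 and Slc6a5 had no probe set among those tested. Of 12 markers of choroid plexus, the secretory tissue that borders the nucleus, 9 were tested and 9 were lower on the infused side, with means of 7.23 to 7.99 on the contralateral arrays and of 9.01, 4.78 and 5.01 on ipsilateral arrays 1, 2 and 3. Microglial markers had higher means for 10 of 12 genes tested of 16 listed (contralateral arrays 6.80 to 7.06, highest ipsilateral array 7.10), and oligodendrocyte markers for 8 of 8 tested of 10 listed (12.66 to 12.92 against 12.86 to 12.92). The part of microglia and oligodendrocytes in the results was not tested.

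On their brightest probe sets, most of the splicing genes differed by less than 0.2 between the sides. The median difference over the 66 genes was 0.03, against -0.00 over all named genes tested, and 46 genes (69.7%) were higher and 20 lower, against 49.1% higher among all named genes. The differences ran from -0.21 for Hnrnpab to 0.53 for U2af1, and 5 of 66 genes (7.58%) differed by 0.2 or more in either direction, against 13.2% of all named genes. Tested over all 15298 probe sets with limma, 0 of 66 genes passed a Benjamini-Hochberg adjusted p of 0.05, as did 0% of all probe sets. At an unadjusted limma p under 0.05, 1 gene was higher (background 1.11%) and 0 were lower (background 1.33%). The 1 gene was U2af1, for which the family was chosen, so nothing is read from that count, and without U2af1 and Prpf19 it was 0 of 64. The 95% limma interval of the difference lay within 0.5 log2 of 0 for 56 of 66 genes, against 72.9% of all named genes. On the brightest probe set, changes of that size fell outside the interval for those 56 and not for the other 10. Those 10 were U2af1, Tra2a, Prpf3, Prpf38b, Hnrnpab, Hnrnpm, Hnrnpul1, Ptbp3, Rbfox2 and Rbfox3. The statement does not hold for every dimmer probe set. Among the 56, a dimmer probe set of Prpf19 differed by 0.58 (interval 0.36 to 0.81), and 1 of Hnrnpa1 had an interval of 0.02 to 0.52. Dimmer probe sets of further genes among the 56 also had intervals that passed 0.5 log2 from 0. Examples were Srsf1 (-0.91 to 0.67), Srsf2 (-0.86 to 0.90), Srsf10 (-0.93 to 0.65) and Sf1 (-0.76 to 0.27).

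**Figure D1:**
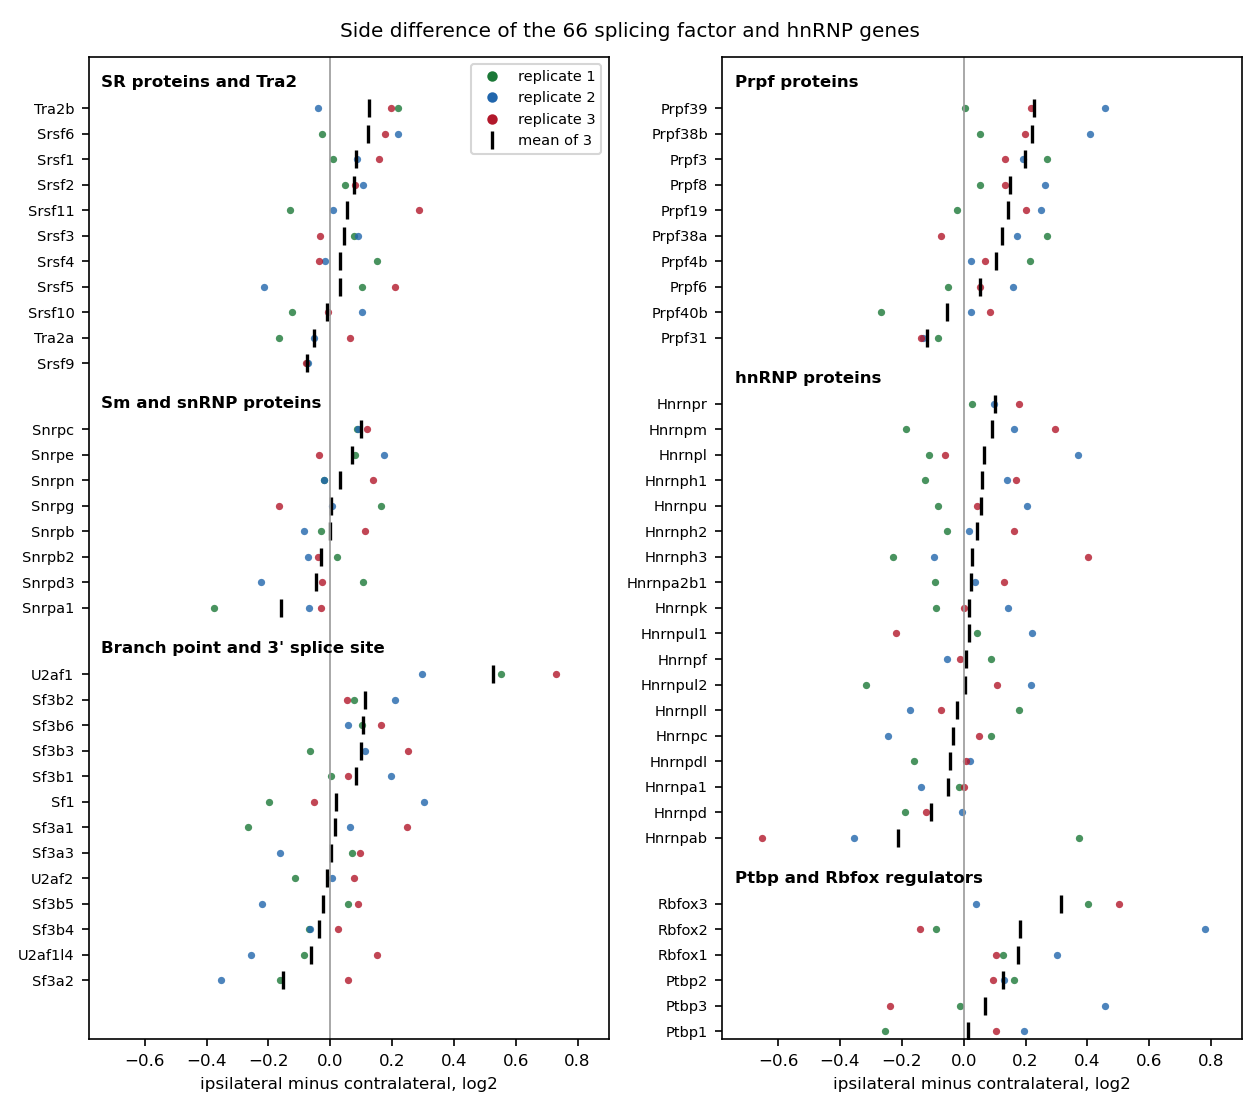
Ipsilateral minus contralateral log2 difference of each of the 66 genes, grouped by role. Coloured points are the 3 replicates and black bars their mean; U2af1 lies at 0.53, and the other 65 means lie between -0.21 and 0.32.

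The direction by replicate gave 16 genes (24.2%) that were higher on the infused side in 3 of 3 replicates, against 11.1% of all named genes, and 4 (6.06%) that were lower in 3 of 3, against 13.8%. The first group held Srsf1, Srsf2, Snrpc, Sf3b1, Sf3b2, Sf3b6, U2af1, Prpf3, Prpf38b, Prpf39, Prpf4b, Prpf8, Hnrnpr, Ptbp2, Rbfox1 and Rbfox3. The second held Srsf9, Snrpa1, Prpf31 and Hnrnpd. Because the family was chosen for genes that were higher in this comparison, nothing is read from these shares. In 4 genes (6.06%) every ipsilateral array lay above every contralateral one, against 2.74% of all named genes, and in 0 genes below, against 3.88%. Those 4 were U2af1, Prpf39, Rbfox1 and Snrpc.

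U2af1 encodes the small subunit of U2AF, which reads the AG dinucleotide that ends the intron. Its single probe set measured 8.97, 8.93 and 8.73 on contralateral arrays 1, 2 and 3 and 9.52, 9.22 and 9.46 on the ipsilateral arrays. The sides did not overlap, with means of 8.88 ± 0.13 and 9.40 ± 0.16 (SD, n = 3 each). The difference was 0.53, a 1.44-fold higher signal on the infused side. By replicate it was 0.55, 0.30 and 0.73. In replicate 1 the choroid plexus marker mean was higher on the infused side, and in replicates 2 and 3 it was lower. With that mean as a covariate the U2af1 difference was 0.60. Without ipsilateral arrays 2 and 3, which leaves 1 ipsilateral array, it was 0.65.

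The partners of U2af1 at the 3′ splice site had smaller differences. U2af2, the large subunit, which binds the polypyrimidine tract, measured 7.66, 7.70 and 7.70 contralaterally and 7.54, 7.70 and 7.77 ipsilaterally, so the sides overlapped. Its interval ran from -0.24 to 0.22. U2af1l4, a paralogue of the small subunit, differed by -0.06 (interval -0.34 to 0.21), and Sf1, the branch point binding protein, by 0.02. Of the 3 SF3A and 6 SF3B subunits, which hold the U2 snRNP on the branch point, the differences ran from -0.15 for Sf3a2 to 0.11 for Sf3b2. Sf3b1, the largest of them and the one that grips the branch point, measured 10.69 ± 0.07 and 10.77 ± 0.09. The dimmer probe sets of Sf1 differed by 0.17 and -0.24, and those of Sf3b2 by 0.03, -0.00 and -0.03.

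Prpf19 encodes a ubiquitin ligase and the core of a complex needed to activate the spliceosome. It was represented by 3 probe sets, which gave different answers. The brightest, 1419839_x_at, measured 10.88, 10.84 and 10.70 contralaterally and 10.86, 11.09 and 10.90 ipsilaterally. The sides overlapped, with a difference of 0.14, and in replicate 1 there was almost none. The second, 1449635_at, which the annotation ties to the same expressed sequence tag, measured 10.33, 10.36 and 10.23 against 10.32, 10.54 and 10.35, a difference of 0.10. The dimmest, 1460633_at, tied to a full-length clone entry, measured 8.74, 8.62 and 8.56 against 9.28, 9.21 and 9.18. Here the sides were fully apart, with a difference of 0.58 that came to 0.54, 0.59 and 0.63 by replicate. The first 2 probe sets moved closely together over the 6 arrays (Pearson r = 0.96) and the dimmest followed the brightest less closely (r = 0.66), as a description over arrays that share their hybridisation. The larger Prpf19 difference therefore rested on 1 of 3 probe sets, and the choice of the brightest one leaves it out. The mean of the 3 differed by 0.27. The difference of the brightest probe set was 0.10 with the choroid plexus marker mean as a covariate. It was 0.05 without ipsilateral arrays 2 and 3, which leaves 1 ipsilateral array.

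**Figure D2:**
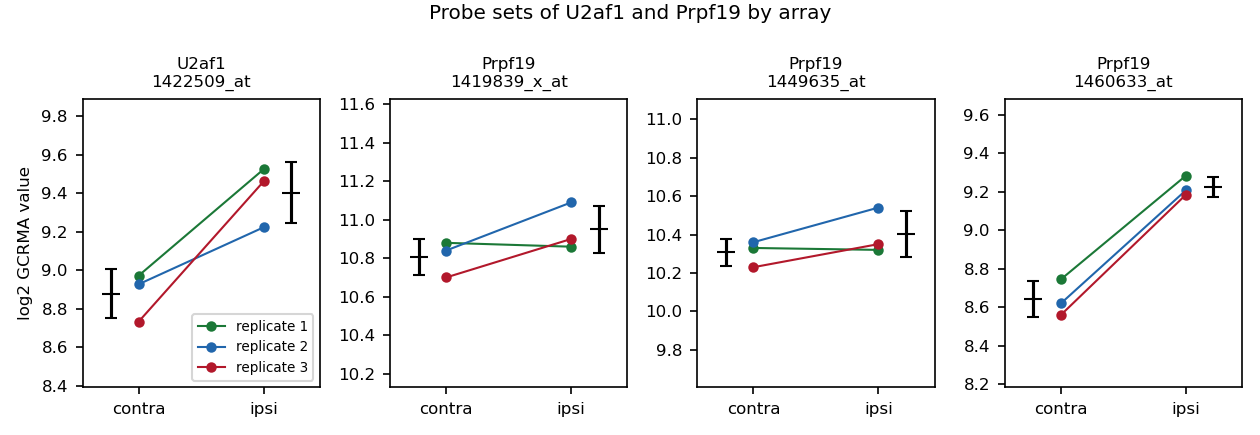
Log2 values of the probe set of U2af1 and of the 3 probe sets of Prpf19 on each array, with lines joining the 2 sides of a replicate and black bars giving mean and SD (n = 3). The sides are apart for U2af1 and for 1460633_at and overlap for the other 2 Prpf19 probe sets; each vertical axis spans the same log2 range.

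The upstream sequences of these 2 genes are shown because the family was chosen for them. The 250 bases before the first listed start site were taken from the RefSeq promoter table (GRCm38.p6), 5′ to 3′ on the strand of the gene, with motif matches in capitals. U2af1 lies at chr17:31658765-31659014 on the minus strand and Prpf19 at chr19:10894981-10895230 on the plus strand.
U2af1: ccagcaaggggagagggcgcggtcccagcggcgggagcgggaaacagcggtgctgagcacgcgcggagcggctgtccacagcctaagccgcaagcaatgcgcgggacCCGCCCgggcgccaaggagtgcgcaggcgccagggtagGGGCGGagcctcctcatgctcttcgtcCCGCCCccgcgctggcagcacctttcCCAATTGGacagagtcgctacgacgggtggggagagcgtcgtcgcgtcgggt
Prpf19: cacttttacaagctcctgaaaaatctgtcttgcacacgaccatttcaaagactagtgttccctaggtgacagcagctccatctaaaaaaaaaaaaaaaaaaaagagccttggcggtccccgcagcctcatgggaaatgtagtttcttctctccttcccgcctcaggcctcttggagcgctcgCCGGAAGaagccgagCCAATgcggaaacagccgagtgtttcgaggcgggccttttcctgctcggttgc

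The motifs searched, on both strands, were an ETS-like CCGGAAG, the GC box GGGCGG, the CCAAT box CCAAT, the TATA box TATAAA, the core TGACGT of the cyclic AMP response element, an NRF1-like CGCATGCG and the CGCG element CTCGCGAG. The U2af1 window held 3 GC boxes and a pair of overlapping CCAAT matches, 1 on each strand, and the Prpf19 window held 1 ETS-like and 1 CCAAT match. The U2af1 window had 71.6% G and C with 31 CpG dinucleotides, and the Prpf19 window 51.2% with 13. Of the 66 genes 58 matched the table. Their median was 59.2% G and C with 19 CpG, against 60.4% and 16 in 7115 tested genes matched. The ETS-like letters stood in 16 of 58 windows (27.6%), against 14.1% of tested genes and 7.05% of all 27025 genes of the table. The cyclic AMP response core stood in 12 (20.7%, against 10.4% and 6.56%), the CCAAT box in 29 (50%, against 36.1% and 34.5%) and the GC box in 37 (63.8%, against 61.2% and 32.9%). TATA boxes stood in 4 windows (6.90%, against 6.18% and 13.0%), NRF1-like letters in 3 (5.17%, against 3.27% and 1.58%) and the CGCG element in 1 (1.72%, against 1.69% and 0.781%). These are counts of letters in 1 window per gene.

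The PRPF genes, Prpf19 included, were higher in 8 of 10 cases (80%, against 49.1% of all named genes), with a median of 0.13. Because the family was chosen for higher genes, Prpf19 among them, nothing is read from that share. Prpf39, a partner of the U1 snRNP, measured 8.32, 8.10 and 8.31 contralaterally and 8.32, 8.56 and 8.53 ipsilaterally. The ipsilateral arrays lay above the contralateral ones by a margin that was close to 0 in replicate 1, and the difference was 0.23 with an interval of -0.04 to 0.49. It was 0.15 with the choroid plexus covariate and 0.08 without ipsilateral arrays 2 and 3. The dimmer probe sets of Prpf39 gave 0.13 and -0.00. Prpf38b differed by 0.22, from 7.46, 7.05 and 7.69 to 7.51, 7.46 and 7.89, a difference that was 0.16 with the covariate, 0.11 without ipsilateral arrays 2 and 3 and 0.08 without ipsilateral array 3. Prpf3, a tri-snRNP protein, differed by 0.20 (5.57 ± 0.21 against 5.77 ± 0.15). Prpf8, the scaffold of the catalytic centre, differed by 0.15. On the lower side stood Prpf31, which also belongs to the tri-snRNP, at -0.12 and Prpf40b at -0.05. None of these intervals lay apart from 0. The dimmer probe sets of Prpf38b and Prpf31 differed by 0.08 and -0.02.

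Genes for the Sm ring and the U1 and U2 snRNP proteins were split evenly, with 4 higher and 4 lower and a median of 0.00. Snrpc, a U1 protein that helps recognise the 5′ splice site, measured 8.49, 8.57 and 8.52 contralaterally and 8.58, 8.66 and 8.64 ipsilaterally. All 3 ipsilateral arrays lay above, but the difference was 0.10, with an interval of -0.10 to 0.30, and it was 0.05 without ipsilateral arrays 2 and 3. Snrpe, an Sm ring protein, differed by 0.07. Snrpa1, the U2 protein A′, was lower in 3 of 3 replicates, with a mean difference of -0.16. On this brightest probe set most of it came from replicate 1 (9.26 against 8.88). The dimmer Snrpa1 probe sets differed by -0.07 and -0.21. On the last one the replicates gave -0.34, -0.17 and -0.13 and the sides did not overlap, with an interval of -0.45 to 0.02. That probe set was singled out after its values were seen. Snrpd3, also of the Sm ring, differed by -0.05 on its brightest probe set and by 0.02 and 0.04 on the dimmer ones. Snrpn, the Sm protein enriched in neurons, measured 6.96 ± 0.13 and 6.99 ± 0.05.

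SR protein genes and their Tra2 relatives were higher in 8 of 11 cases (72.7%, against 49.1% of all named genes), in a family chosen for higher genes. Their median was 0.04, and their differences ran from -0.07 to 0.13. Tra2b, which favours inclusion of purine-rich exons, measured 9.96, 10.05 and 10.21 against 10.18, 10.01 and 10.41, and Srsf6 measured 9.54 ± 0.21 and 9.66 ± 0.12. Both overlapped between the sides. A second Tra2b probe set differed by -0.07, and the dimmer Srsf6 probe sets by 0.00 and -0.06. Srsf9 differed by -0.08, -0.07 and -0.08 in replicates 1, 2 and 3, a small difference with little spread (8.51 ± 0.04 and 8.43 ± 0.04). Tra2a differed by -0.05 with SDs of 0.28 and 0.37. Srsf1, the prototype SR protein, measured 11.39 ± 0.06 and 11.48 ± 0.06. Over all its probe sets above the minimum the difference ran from -0.12 to 0.26.

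The 18 hnRNP genes had a median difference of 0.02, with 12 higher (66.7%, against 49.1% of all named genes) and 6 lower, in a family chosen for higher genes. Hnrnpab, of the A/B type, had the widest spread of all members: 12.22, 12.77 and 12.05 contralaterally and 12.59, 12.41 and 11.40 ipsilaterally. The arrays overlapped and the 3 replicates disagreed in sign. Its 4 other probe sets above the minimum differed by -0.08 to 0.14. Hnrnpa1, a repressor of many exons, differed by -0.05 on its brightest probe set. A second one measured 8.34, 8.18 and 8.09 contralaterally and 8.45, 8.39 and 8.57 ipsilaterally. On that one the sides did not overlap, with a difference of 0.27 and a limma interval of 0.02 to 0.52 before any adjustment, and the dimmest probe set differed by 0.32 with overlap. These were singled out after their values were seen. Hnrnpd, which recruits AU-rich messages for decay, differed by -0.11, Hnrnpr by 0.10 and Hnrnpm by 0.09. The dimmer Hnrnpr probe sets differed by -0.03 and -0.02. Hnrnpk, Hnrnpc and Hnrnpa2b1, abundant coat proteins, differed by 0.02, -0.04 and 0.02, with SDs of 0.02 to 0.13.

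All 6 PTBP and RBFOX genes were higher on the infused side on average, by a median of 0.15, against 49.1% higher among all named genes, in a family chosen for higher genes. With the choroid plexus marker mean as a covariate Ptbp1 and Ptbp3 turned to -0.04 and -0.01. Rbfox1 measured 10.02, 10.02 and 10.11 contralaterally and 10.14, 10.32 and 10.22 ipsilaterally. The arrays did not overlap, and the difference was 0.18 (interval -0.04 to 0.40). It was 0.13 with the choroid plexus covariate and 0.10 without ipsilateral arrays 2 and 3. Rbfox3 measured 5.19, 5.65 and 5.80 against 5.59, 5.69 and 6.30. It was higher in 3 of 3 replicates by a mean of 0.32, but the sides overlapped and the interval ran from -0.24 to 0.87. The Rbfox3 difference was 0.16 with the choroid plexus covariate, 0.04 without ipsilateral arrays 2 and 3, and 0.09 without ipsilateral array 3 alone. Rbfox2 measured 10.35, 9.79 and 10.27 against 10.26, 10.57 and 10.13, so its difference of 0.18 came from replicate 2 alone. Ptbp2 was higher in 3 of 3 replicates by a mean of 0.13 (9.59 ± 0.17 against 9.72 ± 0.14). Ptbp1, the form of non-neuronal cells, differed by 0.01, and Ptbp3 by 0.07 with SDs of 0.48 and 0.16. A second Ptbp2 probe set differed by -0.01 and a second Rbfox2 probe set by -0.04.

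**Figure D3:**
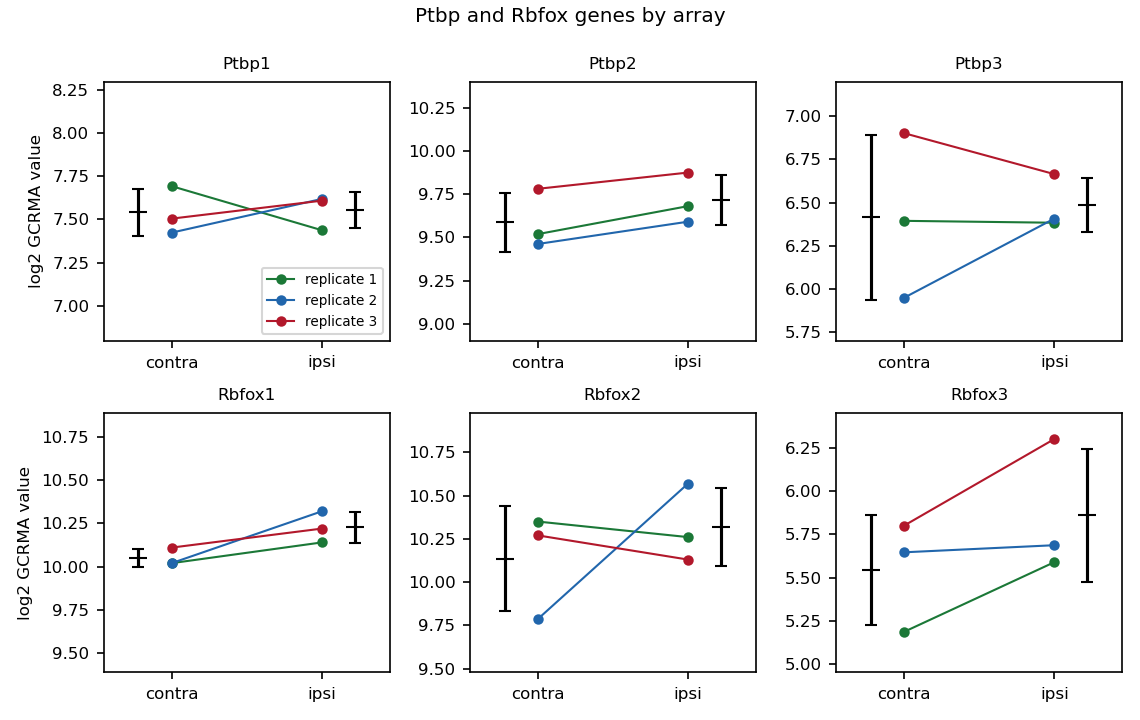
Log2 values of Ptbp1, Ptbp2, Ptbp3, Rbfox1, Rbfox2 and Rbfox3 on each array, with lines joining the 2 sides of a replicate and black bars giving mean and SD (n = 3). The 3 ipsilateral values of Rbfox1 lie above the contralateral ones, while the sides overlap for the other 5 genes.

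Many of the genes differed more between replicate numbers than between sides, in a share near that of all named genes. For 58 of 66 genes (87.9%) the means of the 3 replicate numbers spanned more than the side difference, as they did for 84.0% of all named genes. The median span was 0.21 and the median absolute side difference 0.06. A span over 3 means of 2 arrays tends by its construction to be wider than a difference of 2 means of 3 arrays, so nothing is read from that share. Tra2a stood at 9.01, 8.88 and 9.41 contralaterally and at 8.85, 8.82 and 9.47 ipsilaterally, so both arrays of replicate 3 lay above the other 4. Hnrnpul1 showed the opposite, at 9.43 and 9.21 in replicate 3 and between 9.80 and 10.02 on the other arrays. Replicate 3 exceeded the mean of the other 2 by 0.2 or more in 15 genes (22.7%, background 17.8%) and lay below it by as much in 11 (16.7%, background 15.2%). The higher ones included Tra2a, Tra2b, Srsf10, Hnrnph1, Hnrnpm, Ptbp2 and Rbfox3, and the lower ones Hnrnpab, Hnrnpd, Hnrnpdl, Srsf3, Srsf6 and Prpf31.

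A limma F test of the replicate number, which does not use the side difference, gave 0 of 66 genes after adjustment (background 0%) and 9 at an unadjusted p under 0.05 (13.6%, background 11.5%). Those 9 were Tra2a, Prpf3, Prpf31, Prpf38b, Hnrnpd, Hnrnpdl, Hnrnph1, Hnrnpul1 and Rbfox3. The first principal component of the 66 genes, each scaled to unit variance, held 47.0% of the variance. On it the replicate 3 arrays scored 5.46 and 8.38 and the other 4 between -5.76 and -2.56. No such component was computed for all named genes, so it is not read as particular to the family. Deviations of the replicate 3 arrays from the mean of their side also correlated over all probe sets tested (r = 0.57). Some marker lists moved with it and others did not. Neuronal markers averaged 10.11 and 10.23 in replicate 3 and 9.87 to 9.96 on the other arrays. Markers of cerebellar granule and Purkinje cells averaged 9.49 and 9.50 against 8.86 to 9.10. Of these, 8 of 10 were tested, since Etv1 and Itpr1 had no probe set among those tested. Oligodendrocyte markers averaged 12.92 on both replicate 3 arrays, against 12.66 to 12.92 on the others. The replicate 3 means of microglial markers lay within the 6.80 to 7.10 of the other arrays. Those of choroid plexus markers, 7.23 and 5.01, lay within the 4.78 to 9.01 of the other arrays. The part of the cell types behind these lists in the replicate 3 differences was not tested. This comparison was added after the values were seen.

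**Figure D4:**
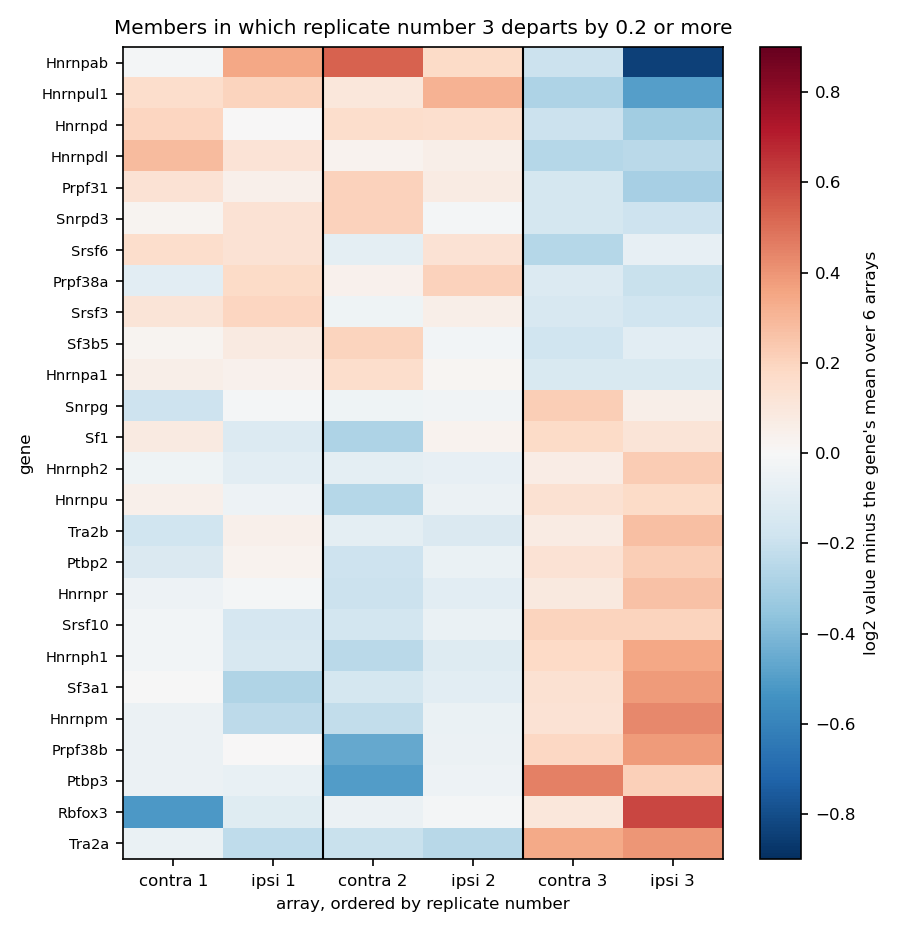
The 26 genes in which replicate 3 departed from the mean of replicates 1 and 2 by 0.2 or more, with arrays ordered by replicate number. Colour is the log2 value minus the mean of the gene over 6 arrays. Both replicate 3 columns carry the opposite sign to most of the other 4, which is largely set by how the genes were picked.

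Probe sets of 1 gene did not always give the same side difference. Among 39 genes with 2 or more probe sets above the minimum the side difference spanned a median of 0.14 between probe sets, under 0.2 in 26 genes, and at most 0.49, in Prpf19. In 18 of the 39 all probe sets had 1 sign. Over the 6 arrays the correlation between probe sets of a gene had a median of 0.45 and ran from -0.83 between 2 probe sets of Srsf6 to 0.99 between 2 of Srsf3. A span over several probe sets tends by its construction to be wider than a single difference. The same values were not computed for all named genes, so nothing particular to the family is read from them. The 4 probe sets of Srsf10 were all higher in replicate 3, by 0.30 to 0.54, whereas those of Srsf1 departed by 0.04 for the brightest and by up to 0.81 for another. These probe sets can read different ends or isoforms of a transcript, and those with names ending in _s_at, _x_at or _a_at can read more than 1 transcript.

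Other spliceosome and splicing regulator genes, named from lists outside the family rule, were balanced between the sides. Of 62 further spliceosome components 42 were tested, 21 higher (50%, against 49.1% of all named genes) and 21 lower, with a median of 0.01. At an unadjusted limma p under 0.05, 0 were called (background 1.11% higher and 1.33% lower). The extremes were Sart3, which recycles the U4/U6 snRNP, at -0.24, the helicase Dhx16 at -0.13, and the tri-snRNP proteins Usp39 and Sart1 at 0.17 and 0.18. A second Usp39 probe set differed by -0.07. Of 48 further regulators 37 were tested, 18 higher (48.65%, against 49.1%) and 19 lower, with a median of -0.00. At an unadjusted limma p under 0.05, 1 was higher (background 1.11%) and 1 was lower (background 1.33%), and 0 passed after adjustment (background 0%). The higher one was Srrm2, a scaffold of nuclear speckles, and the lower one Raly, a relative of Hnrnpc. Nothing is read from counts this small. Srrm2 measured 6.93, 6.76 and 7.05 contralaterally and 7.90, 7.25 and 7.28 ipsilaterally, with no overlap and a difference of 0.56. Raly measured 7.59, 7.70 and 7.38 against 6.83, 7.47 and 6.74, a difference of -0.54 in which ipsilateral array 2 overlapped the other side. Khdrbs3 differed by -0.35 and Rbm25 by 0.14. The dimmer Rbm25 probe sets differed by -0.02, 0.26 and 0.42.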

How the data were processed

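The authors deposited log2 GCRMA expression values per probe set, 1 array per pooled sample. GCRMA is named in the submitters' processing notes without a version, and values of 1.40 to 16.0 mark the scale as log2. GCRMA corrects background by probe sequence and normalizes between arrays, so dim values are uncertain and a change common to most genes is removed. Arrays give no read depth, and their number limits the precision.

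Each array's side and replicate number were read from its description. Gene names are those of the platform annotation (20393 of 22690 with 1 symbol); 66 of 66 members matched RefSeq by Entrez identifier. The 64 control probe sets and those with a mean at or below 4 were left out. limma 3.58.1 in R 4.3.3 was fitted to 15298 probe sets without a replicate block, with Benjamini-Hochberg adjustment, and was tested on simulated data. Gene counts use the brightest probe set. An exact permutation test of 3 against 3 cannot go below a two-sided p of 0.1, so none was run.

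The labels give same-numbered arrays only a number. They were read as both sides of the same mice because infusion was into 1 cochlea and pools were made per replicate, and the counts by replicate and the block rest on that reading. Deviations of same-numbered arrays correlated at 0.09, 0.04 and 0.57 over all probe sets tested and at 0.24, 0.34 and 0.73 over the members. Those of arrays with different numbers correlated at -0.37 to 0.30 over all probe sets tested and at -0.62 to 0.49 over the members. Only number 3 lay above these ranges, so the values do not show the pairing for numbers 1 and 2. Members, lists and alternatives were chosen with earlier results of these data known. Named genes were U2af1, Prpf19, the PTBP and RBFOX genes, members at an unadjusted p under 0.05, the 2 extremes per direction of each role and further list, members with another probe set above the minimum departing by 0.5 or more (none did), the 3 of widest range and the 3 dimmest; others were named after their values were seen. Alternatives were the replicate block, no minimum or a minimum mean of 6, quantile normalization, trended robust variance, averaged probe sets, no _s_at, _x_at or _a_at probe sets, choroid plexus markers as a covariate, and leaving out arrays; the F test of replicate number was chosen after seeing the data.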

Additional observations from a re-analysis of the deposited data

How the results depend on the processing

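With the replicate block, 1 member, U2af1, had an unadjusted limma p under 0.05, as without it, and the block changed no other call among the members; over all named genes tested it raised the calls at that p from 97 to 155 higher and from 116 to 187 lower. No alternative gave a member past an adjusted p of 0.05. The count at an unadjusted p under 0.05 was 2 when a gene's probe sets were averaged (U2af1 and Prpf19) and ranged from 1 to 2 when an array or a replicate was left out, the second being Prpf39 without ipsilateral replicate 1. The median difference of the members ranged from 0.0206 to 0.0813 in those fits, the lowest without replicate 3 and the highest without replicate 1 of both sides. The number of members higher in every replicate ranged from 21 to 32 when only 2 replicates remained, against 16 of 66 in 3, and was 32 without contralateral replicate 1, without ipsilateral replicate 1 or without both; fewer replicates need to share a sign there. It was 11 with averaged probe sets. U2af1 stayed between 0.42 and 0.65, and Prpf19 between 0.05 and 0.27. Of 36 named genes 22 kept their sign under each of the 18 alternatives that gave them a value (635 values in all, since some probe sets drop out) and 14 changed it under 1 or more, among them Hnrnpab (-0.50 to 0.25), Rbfox2 (-0.12 to 0.35) and Tra2a (-0.27 to 0.10). Some alternatives could not change a sign. The replicate block, no minimum, a minimum mean of 6 and trended robust variance leave the difference of a gene as it was. For U2af1, with a single probe set, so do averaged probe sets and the filter on probe set names. The dimmest members by mean were Prpf3 (5.67), Rbfox3 (5.70) and Ptbp3 (6.45), and arrays limit the precision by their number.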

Other observations

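A probe set of Hnrnpab that fell below the minimum mean, 1431349_at, measured 3.42, 3.22 and 3.39 on the contralateral and 4.42, 3.79 and 3.74 on the ipsilateral arrays. The sides were apart by 0.64, at a level where GCRMA values are near the floor, and the 5 probe sets of the gene above the minimum differed by -0.21 to 0.14. It was singled out after its values were seen.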
